A study of Arabidopsis thaliana with 8 samples.

Results

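Genes of the cold and drought response, COR47, ERD10, COR15A, COR15B, KIN1/KIN2, RD29A, RD29B and RAB18, were compared between 4 arrays of Arabidopsis thaliana line 15B and 4 arrays of its CHS-silenced parent line, called the parent below. Their 8 probe sets were chosen by probe set name from the 22746 probe sets left on the array once controls were set aside. The platform annotation names 4 of them (COR47, COR15A, COR15B and the KIN1/KIN2 probe set), and the names of the other 4 come from the rule by which the members were chosen. Line 15B was obtained from the parent with the mutagen ethyl methanesulfonate, so both lines share a transgenic CHS insert. CHS, also called TT4, encodes chalcone synthase, the first enzyme of flavonoid synthesis. In the parent, a Landsberg erecta (Ler) line homozygous for that insert, the added copy silences the resident gene. The series title concerns genes affected when hog1 eases this silencing, while the labels do not name the mutated gene of 15B, a single mutant line whose further mutations they do not describe either. All plants grew at 22 degrees C with 18 h of light on agar (0.7%) with 1% sucrose, after 3 days of stratification at 4 degrees C, and all tissue was taken at growth stage 1.04. Per the design text, 10 plants were pooled and the replicates, 4 per line, are biological. No label gives a cold or drought treatment, so the levels below are those of plants grown without one.

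COR genes and dehydrins encode hydrophilic proteins that build up in cold or drying plants and help to keep membranes and other proteins intact. In the cold, CBF transcription factors bind the CRT/DRE element in the promoters of COR47, COR15A, KIN2 and RD29A. During drought, abscisic acid acts through bZIP factors on a different promoter element, the main route for RD29B and RAB18. COR47, ERD10 and RAB18 are dehydrins, and COR15A and COR15B encode small proteins of the chloroplast stroma.

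In 15B the mean signal of COR47 fell by 43.6% and that of COR15A fell by 41.1%, and both passed the threshold. The 4 other tested probe sets (RD29A, COR15B, KIN1/KIN2 and ERD10) had lower means in 15B without passing. RAB18 and RD29B were too dim to enter the test. The threshold was an adjusted p of 0.05 from limma, with Benjamini-Hochberg adjustment over all 13822 probe sets whose mean signal over the 8 arrays was at least 30, and a log2 difference is that of log2(signal + 10), 15B minus parent, given with its standard error (SE). In this fit 494 probe sets (3.57%) were lower in 15B, against 2 of the 6 tested members. The falls over all probe sets numbered 289 and 232 when parent array 2 or 3 was left out, and 306, 311 and 313 when 15B array 2, 3 or 4 was, while the members past the threshold numbered 2 or 3. The groups did not overlap for 2 members, and in this direction they did not overlap for 8.07% of the tested probe sets.

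**Figure D1:**
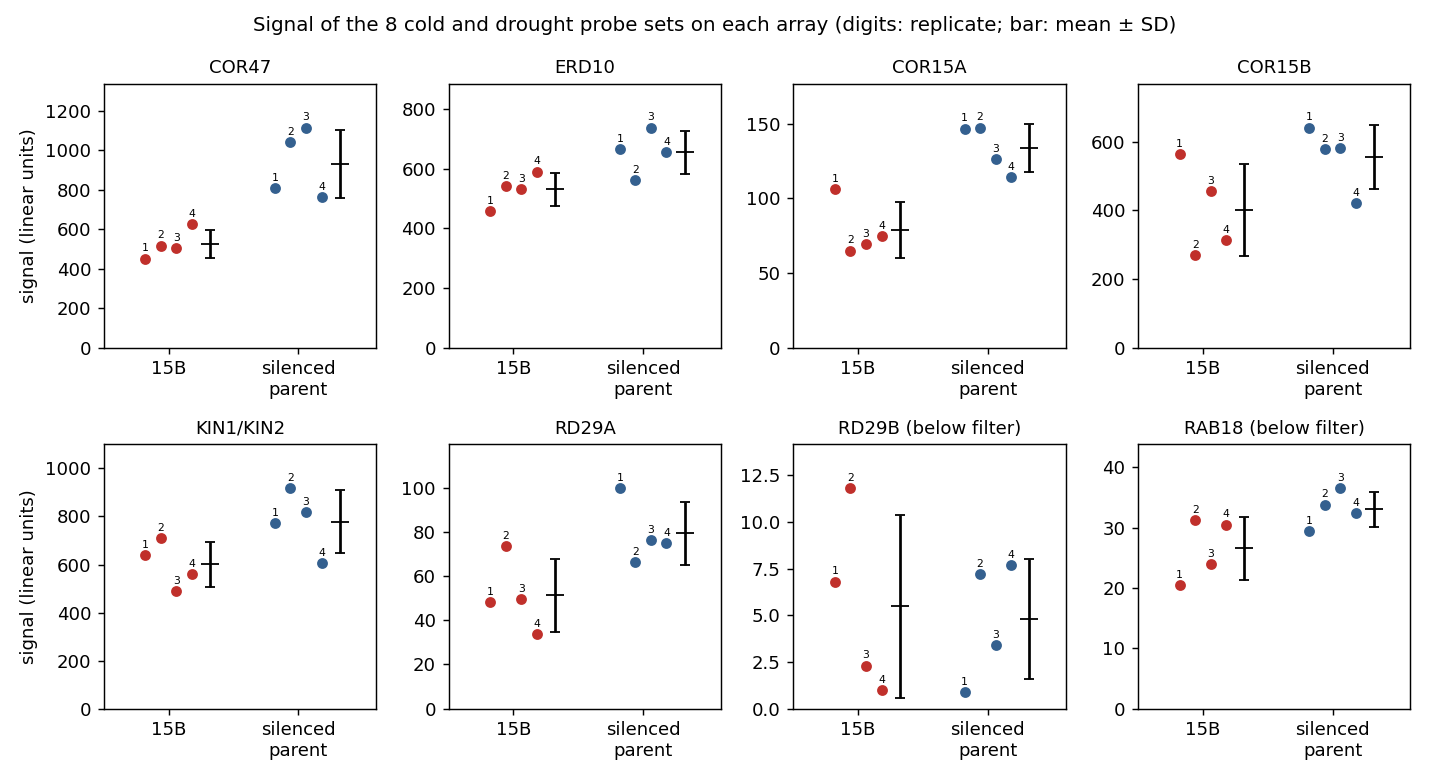
Signal in linear units (vertical axes, each starting at 0) of the 8 probe sets on the 4 arrays of 15B (red, left) and the 4 of the parent (blue, right); digits give the replicate and the black bar the mean ± SD. Only for COR47 and COR15A do all 4 arrays of 15B lie below all 4 of the parent, and RD29B stays under 12 units on every array.

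Among the dehydrins, COR47 (259570_at) differed most. Its signal was 451, 517, 506 and 626 in replicates 1 to 4 of 15B, against 808, 1042, 1114 and 761 in those of the parent. The highest array of 15B thus lay below the lowest of the parent. COR47 averaged 525 ± 73.0 in 15B and 931 ± 173 in the parent (SD, n = 4 each), a log2 difference of -0.81 (SE 0.13, 95% interval -1.09 to -0.52, limma adjusted p = 0.00242). Of all tested probe sets, 0.586% had a log2 difference this low or lower.

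ERD10 (259516_at) is a further acidic dehydrin, and its gene directly follows COR47 on chromosome 1. Its signal was 459, 541, 531 and 590 in 15B, against 666, 562, 737 and 654 in the parent. The groups overlapped, since replicate 4 of 15B lay above replicate 2 of the parent, and 3 arrays of 15B lay below the whole parent group. The means were 530 ± 54.1 in 15B and 655 ± 71.8 in the parent (SD, n = 4 each), with a log2 difference of -0.30 (95% interval -0.51 to -0.08, limma adjusted p = 0.0943).

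RAB18 (247095_at) is a dehydrin induced by abscisic acid. It had signals of 20.5, 31.2, 24.0 and 30.5 in 15B, against 29.4, 33.8, 36.5 and 32.4 in the parent. Its mean over the 8 arrays was 29.8, just under the filter of 30, so it did not enter the test. In the fit with no filter its log2 difference was -0.24 (95% interval -0.56 to 0.07, limma adjusted p = 0.442), and the groups overlapped. It was -0.16 without array 1 of 15B and likewise -0.16 with a pseudocount of 30.

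The chloroplast proteins COR15A and COR15B, which protect membranes on freezing, are encoded side by side on chromosome 2. COR15A (263497_at) had signals of 106, 65.1, 69.2 and 74.6 in 15B, against 147, 147, 127 and 114 in the parent. Replicate 1 of 15B was the highest of its group and still lay below the lowest parent array. COR15A averaged 78.7 ± 18.6 in 15B and 134 ± 16.2 in the parent (SD, n = 4 each), a log2 difference of -0.71 (SE 0.14, 95% interval -1.01 to -0.41, limma adjusted p = 0.00830).

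COR15B (263495_at) varied more. Its signal was 564, 270, 457 and 314 in 15B, against 641, 579, 580 and 421 in the parent. Replicate 1 was again the highest array of 15B, as for COR15A, and here it lay within the parent range together with replicate 3. The SD was 33.6% of the mean in 15B and 16.9% in the parent. The log2 difference was -0.50 (95% interval -0.93 to -0.07, limma adjusted p = 0.166), and without replicate 1 of 15B it was -0.68 and passed (limma adjusted p = 0.0411).

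KIN1 and KIN2 encode small hydrophilic proteins and are neighbours on chromosome 5. A single probe set (246481_s_at) with probes shared by both, as its suffix _s_at records, measures them together, so their signals cannot be told apart. It had signals of 638, 710, 491 and 561 in 15B, against 773, 917, 820 and 604 in the parent. The overlap rests on replicate 4 of the parent, which lay below 2 arrays of 15B. The log2 difference was -0.37 (95% interval -0.66 to -0.08, limma adjusted p = 0.127), and without that parent array it was -0.48 and passed (limma adjusted p = 0.0371).

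RD29A and RD29B, listed in RefSeq as LTI78 and LTI65, lie side by side on chromosome 5 and encode hydrophilic proteins. RD29A (248337_at), which responds to cold and to drought, had signals of 48.2, 73.5, 49.6 and 33.8 in 15B, against 99.6, 66.4, 76.2 and 74.9 in the parent. Replicate 2 of 15B alone reached into the parent range. The log2 difference was -0.57 (95% interval -0.95 to -0.18, limma adjusted p = 0.0766), and without replicate 2 of 15B it was -0.73 and passed (limma adjusted p = 0.0220). With pseudocounts of 1 and 30 it was -0.66 and -0.44.

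RD29B (248352_at), which responds mainly to abscisic acid, gave hardly any signal. It was at 6.8, 11.8, 2.3 and 1.0 in 15B, against 0.90, 7.2, 3.4 and 7.7 in the parent. Both groups lay far below the filter and overlapped widely. The log2 difference in the fit with no filter was 0.04 (95% interval -0.47 to 0.55), and its sign turned when array 1 or 2 of 15B or array 1 of the parent was left out, so no direction can be given.

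**Figure D2:**
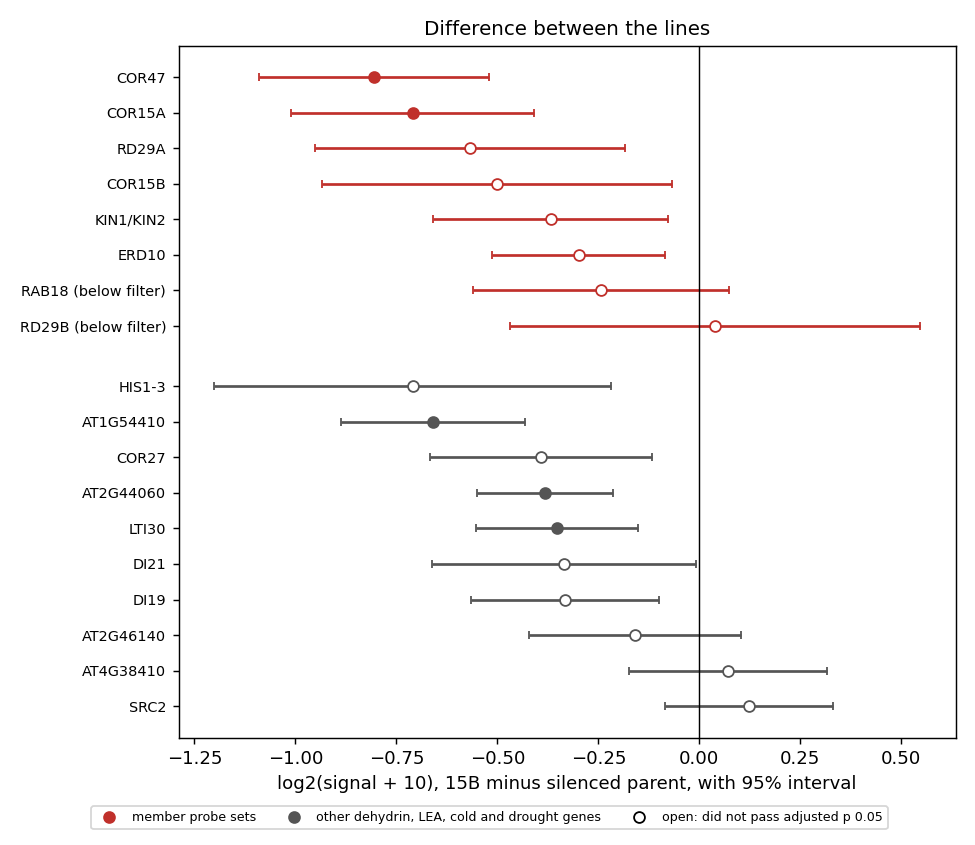
Difference of log2(signal + 10), 15B minus parent (horizontal axis), with its 95% interval, for the 8 member probe sets (red) and for tested genes of the dehydrin, drought and name-word lists (grey). The 3 tested probe sets of the list of cold regulators, with a median of 0.01, are not drawn. Filled points passed an adjusted p of 0.05; COR47 at -0.81 and COR15A at -0.71 lie farthest left of the members, and RD29B lies at 0.04.

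Ordered by log2 difference, the members ran from COR47 and COR15A through RD29A, COR15B, KIN1/KIN2, ERD10 and RAB18 to RD29B. The interval of each overlapped that of the next in this order. The median was -0.53 over the 6 tested members and -0.03 over all tested probe sets. Over all 8 members it was -0.43 in the fit with no filter, where the median of all probe sets was -0.02. The members were chosen with earlier results of these data known, so these medians describe them and are not a test. The RNA came from whole plants, so fewer cells that express a gene and less RNA per cell cannot be told apart.

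Members that are direct neighbours with a probe set each form 3 tandem couples. KIN1 and KIN2 share a probe set, and RAB18 has no neighbour among the members. Within each couple the differences were compared by an exact two-sided permutation test over the 70 splits of the arrays. The log2 difference of COR47 minus that of ERD10 was -0.51 (exact p = 0.0286, adjusted over 3 couples 0.0857). This is the smallest p that 4 against 4 arrays can give, and it did not pass once adjusted. A couple at this p could pass the adjustment only if another couple reached it too. The difference was -0.21 for COR15A minus COR15B (exact p = 0.314, adjusted 0.314) and -0.61 for RD29A minus RD29B (exact p = 0.0857, adjusted 0.129). The last value rests mainly on RD29A, because RD29B gave hardly any signal. That value also depends on the pseudocount: the adjusted exact p for RD29A against RD29B was 0.0429 with 30 in place of 10 and 0.400 with 1. With pseudocounts of 1, 10 and 30 the log2 difference of RD29B stayed at 0.04, 0.04 and 0.02. That of RD29A went from -0.66 through -0.57 to -0.44. For COR47 against ERD10 the exact p before adjustment was 0.0286 with each pseudocount, so its adjusted p of 0.0429 with 30 came from the RD29 couple alone. Single arrays counted too, since COR15A minus COR15B was -0.08 without array 3 of 15B (-0.12 with a pseudocount of 30), and RD29A minus RD29B was -0.37 without array 1 of the parent.

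Arrays of a line did not keep one order over the members. In 15B, replicate 1 was lowest for COR47 and ERD10 and highest for COR15A and COR15B. Replicate 2 was lowest for COR15A and COR15B and highest for KIN1/KIN2 and RD29A. In the parent, replicate 4 was lowest for 4 of the 6 tested members (COR47, COR15A, COR15B and KIN1/KIN2). Its scanner background was 198, against 77.6 to 94.3 on the other parent arrays and 93.7 to 101 on those of 15B. Without it the log2 difference was -0.90 for COR47 (limma adjusted p = 0.00166) and -0.78 for COR15A (adjusted p = 0.00917).

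**Figure D3:**
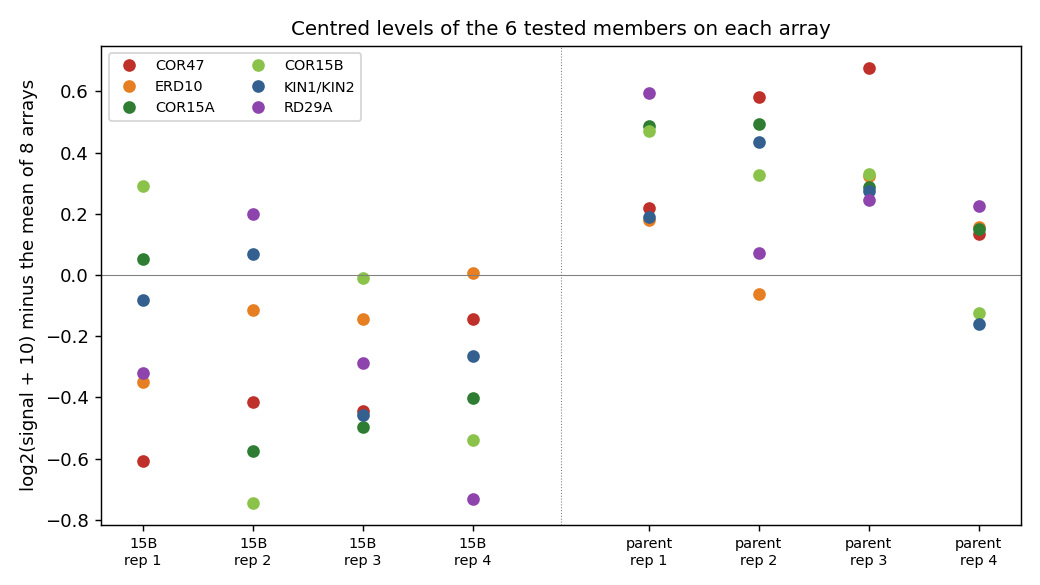
Level of each of the 6 tested members on each array, as log2(signal + 10) minus its own mean over the 8 arrays (vertical axis), with the arrays of 15B on the left and those of the parent on the right. COR15A and COR15B (dark and light green) are the highest points in replicate 1 of 15B and the lowest in replicate 2.

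Likeness of profiles was measured as the root mean square difference of log2(signal + 10) over the 8 arrays, with each probe set centred on its own mean. By this measure the nearest member to COR15B was COR15A (0.236, place 37 of the 13821 other tested probe sets). In the other direction COR15B was the nearest member to COR15A, at place 186. COR47 was nearest to COR15A among the members (0.309, place 681), and its chromosomal neighbour ERD10 was at place 852. From ERD10, though, COR47 was at place 10973, and even its nearest member, KIN1/KIN2 (0.279), was at place 8986. The nearest member was at place 4323 for KIN1/KIN2 (ERD10) and at place 949 for RD29A (KIN1/KIN2). The measure reflects how far a probe set moved over the arrays as well as its pattern. The same distance of 0.319 between COR47 and ERD10 was place 852 from COR47 and place 10973 from ERD10. Places seen from different members are thus not comparable, and they are given as a description.

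Of all probe sets that name 1 gene, those most like COR47 were AT2G15960 (0.112) and AT1G54410 (0.126). The profiles hold the difference between the lines, so a probe set chosen for likeness to a member tends to share its direction. The differences and adjusted p of such probe sets are thus a description and lend the members no support. AT1G54410, also called HIRD11, encodes a dehydrin. AT2G15960 lies next to COR413-PM1, a cold-regulated gene for a plasma membrane protein that has no named probe set here. The signal of AT2G15960 averaged 661 ± 88.8 in 15B and 1151 ± 328 in the parent (SD, n = 4 each), a log2 difference of -0.76 (limma adjusted p = 0.0205). This call was lost when array 2 or 3 of the parent or array 1 or 2 of 15B was left out (limma adjusted p from 0.0529 to 0.0648), and with no filter (adjusted p = 0.0514). Nearest to COR15A were AT3G05730 (0.119, log2 difference -0.68, limma adjusted p = 0.00246) and TBL45 (0.124, -0.59, adjusted p = 0.0355). When single arrays were left out, the TBL45 call held only in the absence of parent array 4 or 15B array 1, with a limma adjusted p up to 0.106 otherwise. It was also lost with median centring (adjusted p = 0.0564), with eBayes without a trend (0.0555) and with no filter (0.0690). The nearest to the other members were NAI2 and AT3G07230 for ERD10, AT1G24610 and AT5G50180 for COR15B, AT1G07280 and AT1G67860 for KIN1/KIN2, and AT3G46220 and AT1G56300 for RD29A. Of these, AT3G07230 passed (-0.33, limma adjusted p = 0.0468), but leaving out any single array other than replicate 4 of 15B ended that call (limma adjusted p up to 0.140), as did median centring (0.0631), eBayes without a trend (0.0844) and no filter (0.0706).

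**Figure D4:**
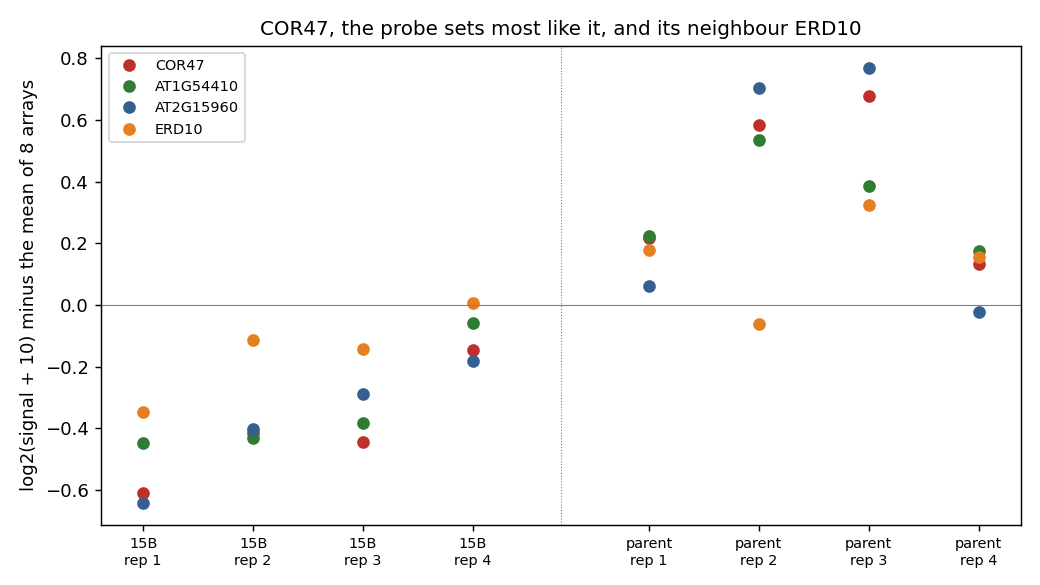
Level of COR47 (red), AT1G54410 (green), AT2G15960 (blue) and ERD10 (orange) on each array, as log2(signal + 10) minus the mean of the 8 arrays (vertical axis), with 15B on the left and the parent on the right. The first 3 lie below their mean on all 4 arrays of 15B, and ERD10 moves over a narrower range. AT1G54410 and AT2G15960 are drawn because their profiles were most like that of COR47.

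Other dehydrins and late embryogenesis abundant (LEA) proteins, which likewise protect cells on drying, had been listed by locus. Of 18 loci 9 had a named probe set and 3 were tested, of which 2 fell (against 3.57% of all tested probe sets), 0 rose and 1 did not pass. AT1G54410 (HIRD11) had signals of 1004, 1016, 1052 and 1320 in 15B, against 1606, 1996, 1798 and 1551 in the parent. The groups did not overlap, and the log2 difference was -0.66 (SE 0.11, limma adjusted p = 0.00214). LTI30, a basic dehydrin induced by low temperature, had signals of 148, 163, 145 and 139 in 15B, against 187, 183, 180 and 222 in the parent. Its groups did not overlap either, with a log2 difference of -0.35 (SE 0.09, limma adjusted p = 0.0405). The LTI30 call was lost when any single array other than replicate 2 of 15B was left out (limma adjusted p from 0.0547 to 0.0974), with quantile normalization (adjusted p = 0.0543) and with eBayes without a trend (adjusted p = 0.0574). The third, AT4G38410, was at 0.07 (limma adjusted p = 0.766). The other 6 loci lay under the filter, and among them LEA, LEA4-5, LEA18 and AtLEA4-1 stayed at or below 15.1 on every array. AtLEA4-1, a LEA protein gene, had signals of 1.8, 1.0, 2.3 and 1.0 in 15B, against 7.9, 9.2, 15.1 and 4.2 in the parent. Its groups did not overlap, and in the fit with no filter its log2 difference was -0.70 (limma adjusted p = 0.0383), at signals far below the filter. In that fit the others were at 0.31 (AT4G39130), 0.23 (LEA4-5), -0.06 (AT3G15670), -0.12 (LEA18) and -0.23 (LEA), and none of them passed. At such signals these values give no direction for the list.

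Genes whose RefSeq names hold words for cold, low temperature, dehydration, desiccation, drought or late embryogenesis formed a further list, made after the values of the members were seen. Beside the members it held 11 genes, of which 7 were tested, 2 fell, 0 rose and 5 did not pass, with a median log2 difference of -0.33. Over all tested probe sets 3.57% fell and the median was -0.03. The falls were LTI30, already counted among the dehydrins, and AT2G44060 (LEA26), a LEA protein gene. AT2G44060 had signals of 541, 468, 459 and 511 in 15B, against 635, 662, 674 and 615 in the parent. Its groups did not overlap, and the log2 difference was -0.38 (SE 0.08, limma adjusted p = 0.0106). Values that did not pass were -0.39 for COR27, a cold-regulated gene, -0.33 for both DI19 and DI21, which are induced by drought, -0.16 for AT2G46140 (LEA27) and 0.12 for SRC2. DI19 passed without replicate 2 of 15B (limma adjusted p = 0.0406), with quantile normalization (0.0431) and with array weights (0.0395), and DI21 passed without replicate 1 of the parent (adjusted p = 0.0137).

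Regulators of the cold response were hardly covered by the names, with a named probe set for 3 of 25 listed loci. Of their 3 tested probe sets 0 passed by limma, and 1 had p under 0.05 before adjustment. The smallest p belonged to STZ, a zinc finger repressor induced by cold, at 0.33 (limma adjusted p = 0.231), followed by SIZ1, a SUMO ligase that stabilises the CBF activator ICE1, at -0.02. The direction of SIZ1 turned under quantile normalization (0.0079). Of 25 drought and osmotic genes only HIS1-3, a linker histone induced by drought, had a named probe set. Others may lie among the unnamed probe sets, as 4 of the members do. Its signal was 48.9, 105, 47.7 and 60.9 in 15B, against 94.5, 144, 133 and 76.6 in the parent, where replicate 2 of 15B lay within the parent range. The log2 difference was -0.71 (SE 0.23, limma adjusted p = 0.0829), and it passed without replicate 2 of 15B (adjusted p = 0.0170), without replicate 4 of the parent (adjusted p = 0.0473) and with array weights (adjusted p = 0.0391). The CBF genes, the abscisic acid genes (29 loci) and the other cold-induced genes (18 loci) were not analysed here, for lack of named probe sets.

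Genes around the members served to show whether the differences extend along the chromosome. Within 5 protein-coding genes on either side, 14 probe sets of 1 named gene were tested. Their median log2 difference was -0.04, and 2 were lower past the threshold, beside 3.57% of all tested probe sets. These were AT5G16010 near KIN1 and KIN2 (-0.30, limma adjusted p = 0.0259) and AT5G66440 near RAB18 (-0.36, adjusted p = 0.0286). Leaving out parent array 4 or 15B array 1 kept both calls, and leaving out any other single array ended both (limma adjusted p up to 0.0813 and 0.0799). The AT5G16010 call was also lost with median centring (adjusted p = 0.0547) and with eBayes without a trend (0.0576). AT1G20430, the gene before COR47, was at -0.09 (limma adjusted p = 0.666).

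Array measures and organ markers were set beside these differences, and their part in them was not tested. RNA integrity was tracked by the ratio of 3' to 5' signal in 3 control genes, and all 3 mean ratios were lower in 15B. For actin it averaged 5.24 in 15B and 6.61 in the parent (exact permutation p = 0.143). The ratio of ubiquitin was 3.07 in 15B and 3.50 in the parent (exact permutation p = 0.143), and that of GAPDH 1.72 in 15B and 1.94 in the parent (exact permutation p = 0.343). The label gives whole tissue, and leaf and root markers gave signal in both lines. The leaf markers were bright, with mean signals over all arrays of 4166 (LHCB4.1) and 3901 (RCA). The root markers were dim, at 40.9 (EXPA7) and 47.4 (EXPA18), not far above the filter. What is said of roots thus rests on 2 dim probe sets. The leaf genes LHCB4.1 (log2 difference -0.06) and RCA (0.11) and the root hair genes EXPA7 (-0.09) and EXPA18 (0.08) gave 0 calls by limma, and 0 had p under 0.05 before adjustment. These are 2 of 10 leaf and 2 of 8 root loci, and none of the 7 seed loci had a named probe set, so organ shares were checked only in small part. Outlier cells numbered 1353 on replicate 2 of 15B and 403 to 505 on its other arrays. Without it the log2 difference was -0.80 for COR47 (limma adjusted p = 0.0115) and -0.64 for COR15A (adjusted p = 0.0312).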

How the data were processed

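The deposited values are linear intensity values, 1 for each of 22810 probe sets on 8 Affymetrix ATH1 arrays, on which a probe set summarises several short probes. The 2%-trimmed mean of every deposited array was 100.0, so the arrays had been scaled before deposit, and differences are relative to the bulk of probe sets. Which software summarised the probes, and its background correction, is not given in the sources used here. The 64 control probe sets were left out, and 13822 of 22746 passed the filter. Values were transformed as log2(value + 10), which understates differences of dim probe sets, and fitted by lmFit and eBayes with an intensity trend (limma 3.58.1, R 4.3.3, two-sided), after a test on simulated data. The number of arrays limits the precision. Names came from the platform annotation of 2016, updated through Entrez numbers to RefSeq TAIR10.1 (13436 of 13513 probe sets with 1 gene matched, 503 name several, 8730 are unnamed here). That table served only for names and gene order. No pair of arrays shared more than 0.958% of values. Members, lists and tests were chosen with earlier results of these data known. Named are the members, up to 4 genes past the threshold per list (or the 2 with the smallest p), and the 2 most similar probe sets per tested member. The other genes of the word list, the neighbours, AT4G38410 and the dim genes of the dehydrin and LEA list were named after their values were seen. Alternatives were other scalings, pseudocounts, filters, variance models, array weights, the replicate number as a block and leaving out each array.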

Additional observations from a re-analysis of the deposited data

Results flagged for a closer look

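Among 86 sets of 4 values examined, 8 held 1 array far from the other 3, and chance does this in about 1 in 20. AT1G54410 was at 1320 in replicate 4 of 15B, against 1004 to 1052 in the other replicates. LTI30 was at 222 in replicate 4 of the parent, against 180 to 187. Of the probe sets similar to a member, AT1G07280 was at 236 in 1 parent array with the next at 295. AT1G56300 was at 132 in 1 array of 15B with the next at 96.3, and at 151 in 1 parent array with the next at 134. Scanner background was 198 and noise 13.5 on replicate 4 of the parent, with the next arrays of that line at 94.3 and 5.15. Replicate 2 of 15B had 1353 outlier cells, and the next array had 505. None of the 8 member probe sets met this criterion in either line.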

How the results depend on the processing

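COR47 (log2 difference -0.90 to -0.71, limma adjusted p up to 0.0115) and COR15A (-0.85 to -0.60, adjusted p up to 0.0312) stayed lower and past the threshold under all 18 alternatives tried. Leaving out 1 array gave 513 to 977 changed probe sets (926 in all arrays), 281 to 440 higher (432), 232 to 537 lower (494) and 2 to 3 lower members. An adjusted p under 0.01 gave 392, 231 and 161. A replicate block (the number in the labels) gave 1078 changed probe sets and 4 members past the threshold, among them COR15B (-0.50, limma adjusted p = 0.0399) and KIN1/KIN2 (-0.37, adjusted p = 0.0494). With it HIS1-3 passed as well (limma adjusted p = 0.0216) and LTI30 did not (0.0560). Arrays of the same number had residual correlations of 0.25, -0.01, 0.05 and 0.05, and 4 of 8 arrays correlated best with their own number. These values do not settle whether the numbers pair the arrays, and the main fit treated the arrays as unpaired. Leaving out 1 array gave -0.68 to -0.34 for COR15B, -0.48 to -0.28 for KIN1/KIN2, -0.73 to -0.42 for RD29A and -0.14 to 0.19 for RD29B, which turned in 3 cases (-0.10, -0.02 and -0.14). With a pseudocount of 30, the neighbour differences were -0.49 for COR47 against ERD10 and -0.46 for RD29A against RD29B, with adjusted exact p of 0.0429 each. RD29B lies under the filter, the RD29 couple had an adjusted exact p of 0.400 with a pseudocount of 1, and COR47 against ERD10 kept its exact p of 0.0286 before adjustment, so this lends neither couple support. The directions that turned otherwise were those of SIZ1 (0.0079 with quantile normalization, -0.074 to 0.021 without 1 array) and EXPA18 (-0.0082 to 0.13 without 1 array), and the cause was not tested.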
